A study of Arabidopsis thaliana with 12 samples.

Results

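The 8 genes described here encode enzymes that remove methylated or damaged bases from DNA in *Arabidopsis thaliana*: the 5-methylcytosine glycosylases *ROS1* and *DME*, the DNA glycosylases *MBD4L*, *OGG1*, *MMH-1* and *NTH1*, and *APE1L* and *ZDP*, which act on the DNA ends that glycosylases leave. They were chosen for their function and found by symbol or locus in the annotation of the Affymetrix ATH1 array or in the gene tables of the study. They are measured by 9 probe sets (*DME* by 2) of the 22746 on the array that are not controls. The 8 are among 14991 genes named by a probe set for a single gene. RNA came from whole seedlings of ecotype Ws, with 3 biological replicates and 1 array for each in 4 groups. The Ws group was wild type and received the solvent DMSO alone. The 5-AC group was wild type with 5-aza-2'-deoxycytidine at 20 mg/L in DMSO, and the TSA group was wild type with trichostatin A at 2.5 mg/L in DMSO. The *ddm1* group was mutant in the chromatin remodeling factor DDM1 and received DMSO alone. It is a single line with a T-DNA insertion from the Wisconsin collection, so an effect of the mutation and one of this line cannot be told apart. Seedlings of all groups were grown in liquid 0.5X MS medium with 1% sucrose at 21 °C in continuous light. The additions were made at 24 hours and renewed with the medium at 5 days. The labels put the seedlings at 10 days of age, while the methods give a later harvest.

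Cytosine methylation in plants is set by methyltransferases and taken off by a repair reaction. ROS1 and DME are bifunctional glycosylases, which cut out 5-methylcytosine and nick the strand at that place. The gap is then cleaned by APE1L or ZDP, filled with an unmethylated cytosine and sealed, so that demethylation shares its last steps with base excision repair of oxidised and deaminated bases. ROS1 works in vegetative tissues and keeps genes next to methylated transposons from being silenced, while DME is best known from the central cell of the female gametophyte, where it activates imprinted genes. The *ROS1* promoter is known to carry a methylated element whose loss lowers *ROS1* transcription. 5-AC is built into DNA at replication and traps the methyltransferases, DDM1 lets methyltransferases reach nucleosomal DNA, and TSA inhibits histone deacetylases. The groups therefore show how the genes for removing methylation were expressed when its maintenance, or histone deacetylation, was disturbed.

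Values are log2 intensities from gcRMA, as deposited. A probe set was tested when at least 2 of the 12 arrays reached a log2 value of 3, which 17129 did, all 9 of these among them. Groups were compared by limma over all 12 arrays, the p-values were adjusted over all 17129 by the Benjamini-Hochberg procedure, and a probe set is called higher or lower at an adjusted p under 0.05. The 3 comparisons with Ws use the same 3 Ws arrays and are not independent of each other. The probe sets of *ROS1*, *OGG1* and *MMH-1* are named only by tables in which the study listed genes that changed after 5-AC on these arrays, and those tables list *DME* too, so the direction of these 5 probe sets after 5-AC is not independent evidence. Replicate arrays correlated at 0.976 to 0.992 across genes, which are not replicates, and array medians were 4.92 to 5.03. The *DDM1* probe set was higher in the arrays labelled *ddm1* than in Ws (log2 change 2.82, adjusted p = 1.8e-06 from limma). Where its probes lie with respect to the insertion was not given in the sources used here, so this does not check the labels, and *ddm1* stands for the arrays so labelled. The number of arrays limits the precision.

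Against Ws, 4 of the 9 probe sets were higher after 5-AC (both of *DME*, *MMH-1* and *APE1L*), 2 were lower (*ROS1* and *OGG1*) and 3 did not pass the test (*MBD4L*, *NTH1* and *ZDP*). Of all probe sets tested 30.9% were higher after 5-AC and 26.3% were lower, so these counts are near the background and do not set the genes apart. Of the 4 probe sets that are not in the study's tables of changed genes, *APE1L* was called and *MBD4L*, *NTH1* and *ZDP* were not. In *ddm1* only *ROS1* was called, as lower, where 0.216% of all probe sets were lower. After TSA both probe sets of *DME* were higher and *ROS1* was lower, against 7.14% of all probe sets higher and 7.35% lower. The median log2 change over the 9 was 0.09 after 5-AC, -0.01 in *ddm1* and -0.16 after TSA, and over all probe sets tested it was 0.05, -0.03 and 0.02.

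*ROS1* (AT2G36490, probe set 263909_at, named *DML1* in RefSeq, on chromosome 2) was lower than in Ws in each of the other groups. In Ws its log2 values were 3.52, 3.66 and 3.66. After 5-AC they were 2.19, 2.07 and 2.08. In *ddm1* they were 2.17, 2.55 and 2.19, and after TSA they were 2.2, 2.27 and 2.71. Each Ws array thus stood above every array of the other groups, and the highest array outside Ws was TSA replicate 3. The mean fell from 3.61 ± 0.08 (SD, n = 3) in Ws to 2.11 ± 0.07 (SD, n = 3) after 5-AC, 2.30 ± 0.21 (SD, n = 3) in *ddm1* and 2.39 ± 0.28 (SD, n = 3) after TSA. The log2 change was -1.50 after 5-AC (95% interval -1.85 to -1.15, adjusted p = 1.5e-05 from limma), -1.31 in *ddm1* (95% interval -1.66 to -0.96, adjusted p = 0.00056) and -1.22 after TSA (95% interval -1.58 to -0.87, adjusted p = 0.00066). These are falls of 2.83-fold, 2.48-fold and 2.33-fold on the array's scale.

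The *ROS1* signal was low in all groups, which limits the size of these changes. Only the Ws arrays reached the log2 value of 3 that the filter asked for, so a probe set with this pattern had to differ between Ws and the rest to be tested at all. When no filter was set, the adjusted p was 3.4e-05 for 5-AC, 0.00095 for *ddm1* and 0.0013 for TSA. On each array of 5-AC and of *ddm1* the value lay below that array's 25th percentile, where the background adjustment sets much of the value, so the folds are those of the array's scale and not of transcript number. By the methods' t-test *ROS1* was called lower after 5-AC (adjusted p = 0.0041) but not in *ddm1* (adjusted p = 0.36) or after TSA (adjusted p = 0.20). That test called 0 of the 17129 probe sets lower in *ddm1* and 4 lower after TSA, so a missing call there says little about *ROS1*.

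None of the 9 arrays outside Ws reached a log2 value of 3 for *ROS1*, so its levels after 5-AC, in *ddm1* and after TSA are given no order. No difference between these groups was called in the main fit. With centring on reference genes the level after TSA was called higher than after 5-AC (0.47, adjusted p = 0.039 from limma), at this low signal. The study also measured *ROS1* transcript by reverse transcription and quantitative PCR, and those values were not analysed here. The primer pair is shown because it fixes which *ROS1* sequence was read by that second assay, 22 bases for the forward and 23 for the reverse primer, each printed 5' to 3' as the study's primer list gives it.
ROS1 forward: tcagccagttaaggacagaaca
ROS1 reverse: tcatcaggttctctcttttccaa

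**Figure D1:**
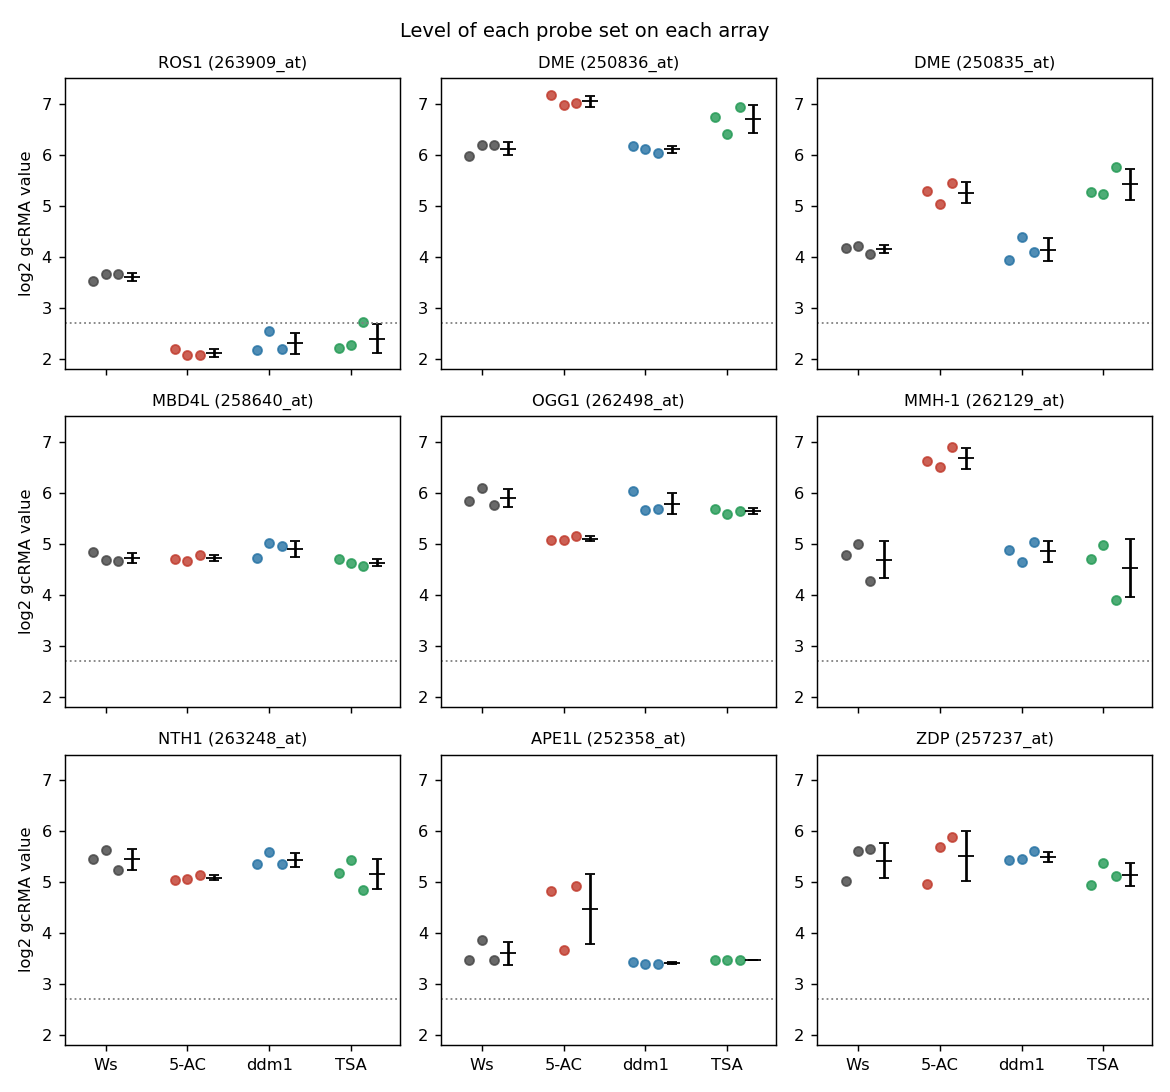
Deposited log2 values of the 9 probe sets by group, with 1 point per array and a bar for the mean ± SD of 3 arrays; the dotted line is the highest 25th percentile of any array (2.70). *ROS1* is above this line in Ws and at or below it elsewhere apart from TSA replicate 3 (2.71), the 2 *DME* probe sets are raised after 5-AC and TSA, and *MMH-1* is raised after 5-AC alone.

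*DME* (AT5G04560, on chromosome 5), the second 5-methylcytosine glycosylase, went the other way after both chemicals and was near its Ws level in *ddm1*. Its probe set 250836_at had log2 values of 5.98, 6.19 and 6.20 in Ws and 7.18, 6.97 and 7.01 after 5-AC. In *ddm1* it had 6.18, 6.12 and 6.04, and after TSA 6.75, 6.40 and 6.94. All 5-AC and TSA arrays lay above all Ws arrays, and the *ddm1* arrays lay within the Ws range. The log2 change was 0.93 after 5-AC (standard error 0.15, 95% interval 0.60 to 1.26, adjusted p = 0.00029 from limma), a rise of 1.91-fold. In *ddm1* it was -0.01 (95% interval -0.34 to 0.32, adjusted p = 1). After TSA it was 0.57 (95% interval 0.25 to 0.90, adjusted p = 0.026), and this call was lost without TSA replicate 1 (0.55, adjusted p = 0.076), TSA replicate 3 (0.45, adjusted p = 0.073), Ws replicate 1 (0.50, adjusted p = 0.097) or Ws replicate 2 (0.61, adjusted p = 0.056). It was also lost with centring on reference genes (0.51, adjusted p = 0.053), with only the arrays of both groups in the fit (adjusted p = 0.091) and by the methods' t-test (adjusted p = 0.28).

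The other *DME* probe set, 250835_at, moved in the same directions. It had log2 values of 4.18, 4.21 and 4.06 in Ws, 5.29, 5.04 and 5.45 after 5-AC, 3.93, 4.38 and 4.10 in *ddm1*, and 5.27, 5.23 and 5.77 after TSA. Every 5-AC and TSA array again stood above every Ws array, and *ddm1* spanned the Ws values. The log2 change was 1.11 after 5-AC (95% interval 0.71 to 1.51, adjusted p = 0.00035 from limma) and 1.27 after TSA (95% interval 0.87 to 1.67, adjusted p = 0.0012), or 2.16-fold and 2.41-fold. The methods' t-test, which called 4 of the 17129 probe sets higher after TSA, did not call it (adjusted p = 0.20). In *ddm1* it was -0.02 (95% interval -0.42 to 0.38, adjusted p = 1). Both probe sets read the same transcripts in the same RNA and are not separate evidence for *DME*. The third probe set that the array's annotation gives for *DME*, 250834_at, did not pass the filter and had values of 2.04 to 2.08 in Ws, 5-AC and *ddm1* and 2.1, 2.59 and 2.60 after TSA.

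Among the glycosylases of damaged bases, *MMH-1* and *OGG1* changed after 5-AC in opposite directions, and *MBD4L* and *NTH1* were not called in any comparison with Ws. *MMH-1* (AT1G52500, probe set 262129_at) encodes a formamidopyrimidine-DNA glycosylase, which removes oxidised purines. Its log2 values were 4.79, 4.99 and 4.27 in Ws and 6.62, 6.51 and 6.91 after 5-AC. They were 4.87, 4.64 and 5.03 in *ddm1* and 4.71, 4.98 and 3.89 after TSA. Every 5-AC array lay more than 1 log2 unit above every other array, while Ws, *ddm1* and TSA overlapped and replicate 3 was the lowest array of both Ws and TSA. The log2 change after 5-AC was 2.0 (standard error 0.28, 95% interval 1.39 to 2.60, adjusted p = 0.0001 from limma), or 3.99-fold, the largest change among the 9 probe sets. It was 0.16 in *ddm1* (95% interval -0.45 to 0.77, adjusted p = 1) and -0.16 after TSA (95% interval -0.76 to 0.45, adjusted p = 0.77).

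*OGG1* (AT1G21710, probe set 262498_at), which encodes the 8-oxoguanine DNA glycosylase, had log2 values of 5.84, 6.10 and 5.76 in Ws. After 5-AC they were 5.07, 5.07 and 5.15, below every other array. In *ddm1* they were 6.03, 5.66 and 5.69, and after TSA they were 5.69, 5.58 and 5.64. All TSA arrays were below all Ws arrays, while *ddm1* overlapped Ws. The log2 change was -0.80 after 5-AC (standard error 0.14, 95% interval -1.10 to -0.50, adjusted p = 0.00044 from limma), a fall of 1.75-fold. It was -0.11 in *ddm1* (95% interval -0.41 to 0.19, adjusted p = 1) and -0.27 after TSA (95% interval -0.57 to 0.03, adjusted p = 0.23). The enzymes encoded by *OGG1* and *MMH-1* both act on 8-oxoguanine.

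*NTH1* (probe set 263248_at), an endonuclease III homologue that removes oxidised pyrimidines, had log2 values of 5.44, 5.63 and 5.23 in Ws, 5.04, 5.05 and 5.14 after 5-AC, 5.36, 5.58 and 5.36 in *ddm1* and 5.17, 5.43 and 4.85 after TSA. The 5-AC arrays all lay below the Ws arrays, and the other groups overlapped Ws. The log2 change after 5-AC was -0.36 (95% interval -0.72 to 0.00, adjusted p = 0.083 from limma), and it passed the threshold when arrays were centred on their median (-0.39, adjusted p = 0.048) or on reference genes (-0.61, adjusted p = 0.014). Of the 3 reference genes used for centring, *TIP41L* (log2 change 1.14) and *UBC21* (-0.52) were themselves called after 5-AC and *SAND* (0.14) was not, so values centred on them after 5-AC carry those changes. *MBD4L* (probe set 258640_at), which encodes a glycosylase for uracil and thymine mispaired with guanine, stayed between 4.57 and 5.02 over the 12 arrays. Its log2 changes were -0.01 after 5-AC (95% interval -0.27 to 0.26), 0.17 in *ddm1* (95% interval -0.09 to 0.43) and -0.10 after TSA (95% interval -0.36 to 0.17), with adjusted p = 0.96, 1 and 0.66 from limma. These intervals are the narrowest of the 9 probe sets.

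**Figure D2:**
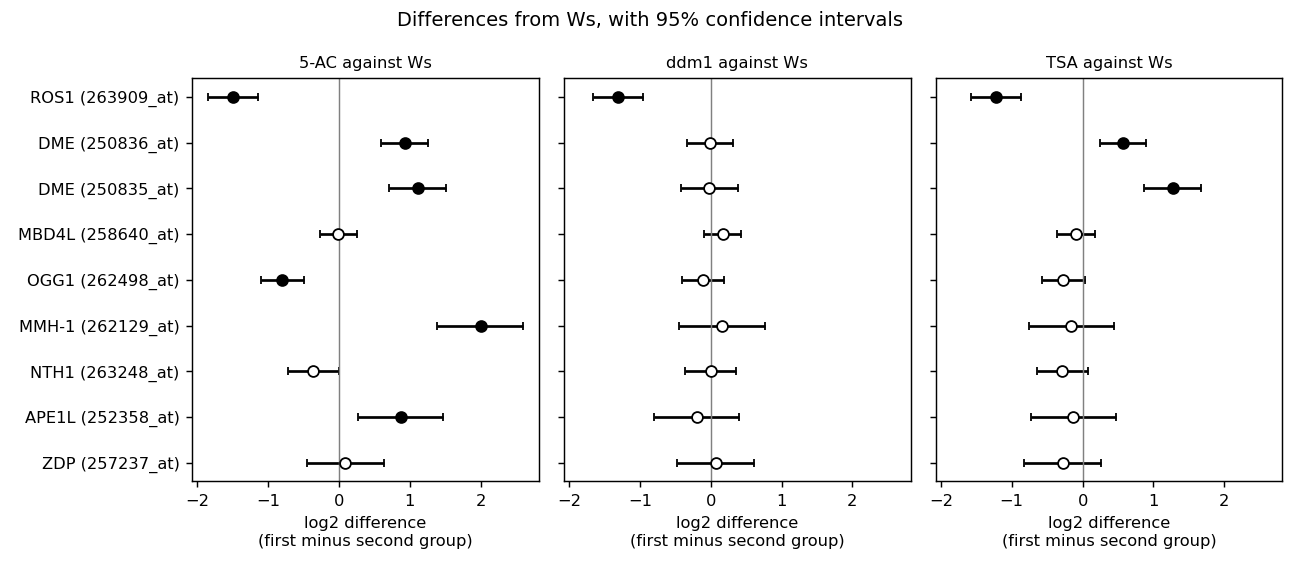
Log2 difference of 5-AC, *ddm1* and TSA from Ws for each probe set, with its 95% confidence interval from limma; filled points are past an adjusted p of 0.05. *ROS1* is the single filled point for *ddm1* (-1.31) and is on the lower side in all 3 panels, and *DME* is on the higher side for 5-AC (0.93 and 1.11) and TSA (0.57 and 1.27).

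The enzymes that act after the glycosylases gave weaker results. *APE1L* (probe set 252358_at) encodes an AP endonuclease that trims the blocked 3' end left by ROS1. Its log2 values were 3.46, 3.86 and 3.47 in Ws, 4.82, 3.67 and 4.91 after 5-AC, 3.42, 3.39 and 3.38 in *ddm1*, and 3.47 on each TSA array. Replicates 1 and 3 of 5-AC stood above all other arrays, but 5-AC replicate 2 was below Ws replicate 2, so the groups overlapped. Of the 12 arrays 8 lay between 3.38 and 3.47. The log2 change after 5-AC was 0.87 (standard error 0.27, 95% interval 0.27 to 1.47, adjusted p = 0.018 from limma). The call was lost without 5-AC replicate 1 (0.69, adjusted p = 0.073), 5-AC replicate 3 (0.65, adjusted p = 0.069) or either of Ws replicates 1 and 3 (0.80, adjusted p = 0.055), when arrays were centred on reference genes (0.62, adjusted p = 0.09), with only the arrays of both groups in the fit (adjusted p = 0.078), and by the methods' t-test (adjusted p = 0.24). In *ddm1* the change was -0.20 (95% interval -0.80 to 0.40) and after TSA -0.13 (95% interval -0.73 to 0.47).

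*ZDP* (probe set 257237_at), a DNA 3' phosphatase of the same pathway, was not called in any comparison with all arrays in the fit. Without 5-AC replicate 1 it was called lower after TSA than after 5-AC (-0.65, adjusted p = 0.028 from limma). It had log2 values of 5.01, 5.61 and 5.64 in Ws, 4.96, 5.69 and 5.88 after 5-AC, 5.43, 5.44 and 5.60 in *ddm1* and 4.93, 5.38 and 5.11 after TSA. All groups overlapped, and replicate 1 was the lowest array in each of the 4 groups. The log2 change was 0.09 after 5-AC (95% interval -0.45 to 0.64, adjusted p = 0.79 from limma), 0.07 in *ddm1* (95% interval -0.48 to 0.61, adjusted p = 1) and -0.28 after TSA (95% interval -0.83 to 0.26, adjusted p = 0.50).

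The direct comparisons asked where the chemicals and the mutant differed from each other. Between 5-AC and *ddm1* 5 of the 9 probe sets were called, 4 higher after 5-AC and 1 lower, where 56.6% of all probe sets were called in either direction. *MMH-1* was 1.84 log2 units higher after 5-AC than in *ddm1* (adjusted p = 0.00019 from limma), the *DME* probe sets were 0.94 and 1.13 higher (adjusted p = 0.00028 and 0.00032), and *APE1L* was 1.07 higher (adjusted p = 0.006). *OGG1* was 0.70 lower (adjusted p = 0.0012). The methods' t-test did not call *OGG1* (adjusted p = 0.063) or *APE1L* (adjusted p = 0.19) here. With centring on reference genes *NTH1* (-0.52, adjusted p = 0.032 from limma) and *MBD4L* (-0.34, adjusted p = 0.047) were called lower after 5-AC as well. *ROS1* was not called here, and with its signal below the 25th percentile on every 5-AC and *ddm1* array this does not show equal levels.

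Between TSA and 5-AC 3 of the 9 were called, where 53.3% of all probe sets were. *MMH-1* was lower after TSA than after 5-AC, with a log2 difference of -2.15 (adjusted p = 6.6e-05 from limma), *APE1L* differed by -0.99 (adjusted p = 0.0095) and *OGG1* by 0.54 (adjusted p = 0.0063). The *APE1L* call was lost with only the arrays of both groups in the fit (adjusted p = 0.052) and by the methods' t-test (adjusted p = 0.22), which did not call *MMH-1* either (adjusted p = 0.058). For *DME* the difference of TSA from 5-AC was -0.36 in 250836_at (95% interval -0.69 to -0.03, adjusted p = 0.064) and 0.16 in 250835_at (95% interval -0.24 to 0.56, adjusted p = 0.48). Its 2 probe sets thus gave opposite signs and no call, although the first was called without TSA replicate 3 (-0.48, adjusted p = 0.024). Between TSA and *ddm1*, a comparison added after values had been seen, both *DME* probe sets were higher after TSA by 0.58 and 1.29 (adjusted p = 0.020 and 0.00063), where 8.53% of all probe sets were higher, and the other 7 were not called. The call with the smaller change was lost without TSA replicate 1 or 3 or *ddm1* replicate 2 or 3 (0.46 to 0.59), and the methods' t-test called neither probe set (adjusted p = 0.21 and 0.088).

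**Figure D3:**
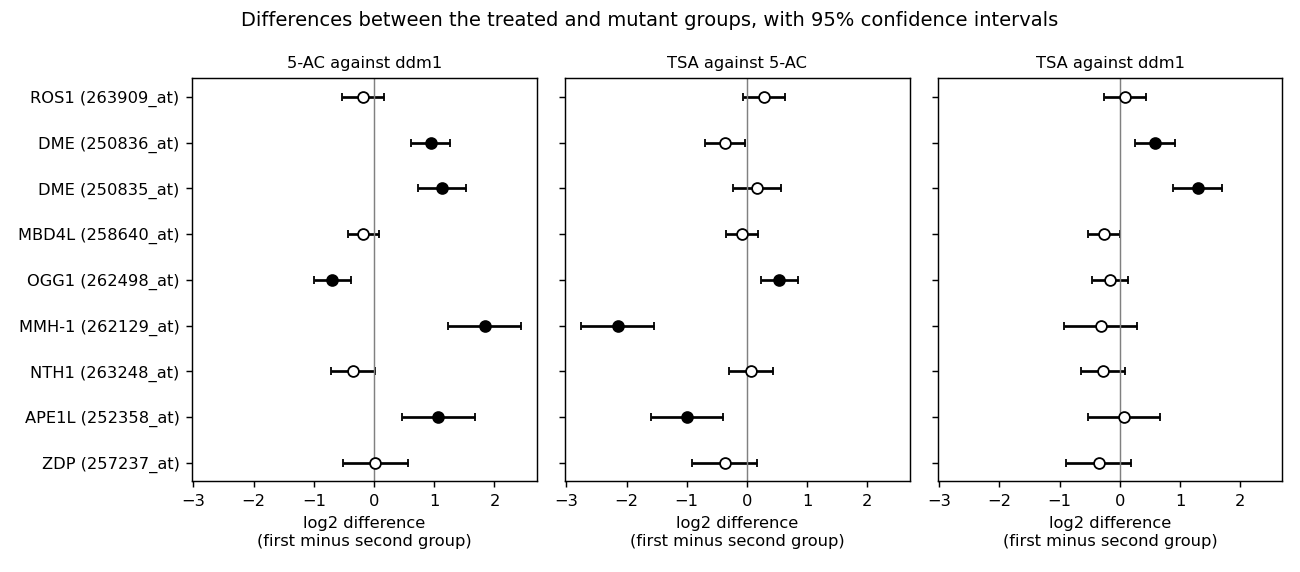
Log2 difference between 5-AC and *ddm1*, TSA and 5-AC, and TSA and *ddm1* for each probe set, with its 95% confidence interval from limma; filled points are past an adjusted p of 0.05. *MMH-1* shows the widest gap between 5-AC and the other groups (1.84 and -2.15), and *ROS1*, near the floor of the signal in these groups, is unfilled in all 3 panels.

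Lists of marker genes moved with 5-AC along with these genes, where 26.3% of all probe sets were lower and 30.9% higher. Of the cell division markers 5 of 5 were lower after 5-AC (mean log2 level per array 5.90 to 6.45 in Ws and 3.85 to 4.09 after 5-AC), as were 6 of 6 root markers (7.74 to 8.63 and 4.37 to 5.16) and 2 of 2 markers of leaf photosynthesis (11.62 to 12.28 and 6.68 to 8.54). Of the genes induced by DNA damage 8 of 8 were higher (4.77 to 5.37 and 9.25 to 9.40). In *ddm1* limma called 0 of the markers, 3 lists had 1 marker each under an unadjusted p of 0.05 and the methods' t-test called 0, while the mean levels were 6.18 to 6.49 for cell division, 8.0 to 8.35 for root, 10.93 to 11.44 for leaf photosynthesis and 5.22 to 5.50 for DNA damage. With 1.35% of all probe sets called higher and 0.216% lower in *ddm1*, this count of 0 is near the background. After TSA 1 root marker was lower, with a mean root level of 7.21 to 7.25, and 2 damage genes were higher, against 7.35% of all probe sets lower and 7.14% higher. The lists held 7 genes for cell division, 6 for root, 8 for leaf photosynthesis and 8 for DNA damage. Of these 5, 6, 2 and 8 had a named probe set. Some of these markers are named only by the study's tables of changed genes. Their part in the changes of the 9 probe sets was not tested, and in RNA of whole seedlings fewer cells of a type and less RNA per cell cannot be told apart.

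Other genes of base excision repair were called in both directions after 5-AC. Of 26 genes listed 14 had a named probe set and 11 were tested, of which 7 were higher after 5-AC, 2 were lower and 2 were not called, with a median log2 change of 0.98 beside 0.05 over all probe sets, of which 30.9% were higher and 26.3% lower. The methods' t-test called 4 of the 11. Among the 7 that are not in the study's tables of changed genes limma called 4 higher and 1 lower, while the methods' t-test called 0. *PARP2*, a poly(ADP-ribose) polymerase that binds strand breaks and is also among the damage genes above, rose from 5.16, 6.02 and 5.80 in Ws to 10.09, 9.54 and 9.67 after 5-AC (log2 change 4.11, standard error 0.40, adjusted p = 7.5e-06 from limma). AT1G75230, a DNA glycosylase of the helix-hairpin-helix family, rose from 5.61, 5.63 and 5.46 to 7.60, 7.87 and 7.41 (log2 change 2.06, standard error 0.16, adjusted p = 1.3e-06). *FEN1*, the flap endonuclease of long-patch repair, had a log2 change of 1.15 (adjusted p = 0.00024), and AT3G12040, a 3-methyladenine glycosylase, one of 1.19 (adjusted p = 0.023), whose call was lost without 5-AC replicate 1 or 3 or Ws replicate 2 or 3 (0.99 to 1.13) and with centring on reference genes (0.94, adjusted p = 0.068). AT1G80850, AT1G19480 and AT3G50880 rose by 1.62, 0.98 and 0.88.

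The 2 that fell are both of the methyladenine glycosylase family. AT3G12710 fell from 7.14, 6.50 and 6.74 in Ws to 1.99, 2.16 and 2.94 after 5-AC (log2 change -4.43, standard error 0.28, adjusted p = 3.3e-07 from limma). AT5G44680 fell from 8.24, 7.61 and 7.18 to 2.43, 3.05 and 5.84 (log2 change -3.90, standard error 0.69, adjusted p = 0.0006), with 5-AC replicate 3 standing above the other 5-AC arrays. AT1G80850, of the same family, rose, so its measured members did not move together. AT5G57970 and *APE2* had log2 changes of -0.42 and -0.29 (adjusted p = 0.065 and 0.27).

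For *ddm1* limma called 0 of the 11, 0 were under an unadjusted p of 0.05 and 0 were called by the methods' t-test, with log2 changes of -0.26 to 0.23. In this comparison limma called 1.35% of all probe sets higher and 0.216% lower, so a count of 0 is near the background. After TSA AT1G80850 (log2 change 1.17, adjusted p = 0.021 from limma) and AT3G12710 (0.97, adjusted p = 0.039) were higher, where 7.14% of all probe sets were. The first call was lost without TSA replicate 1 or 2 or Ws replicate 2 or 3 (1.18, 0.87, 1.13 and 1.05), and the second without any single TSA array or without Ws replicate 2 or 3 (0.83 to 1.04). The first was also lost with only the arrays of both groups in the fit (adjusted p = 0.083 from limma). The second was lost with no filter on low values (adjusted p = 0.069 from limma). The methods' t-test called neither (adjusted p = 0.29 and 0.23). The log2 changes of AT3G12710 thus had opposite signs after the 2 chemicals, but its call after TSA was lost in many of the alternatives. The probe sets of *UNG* (2.46 to 2.80), *MYH* (2.24 to 2.58) and AT1G75090 (2.06 to 2.37) were too low on all arrays to be tested.

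**Figure D4:**
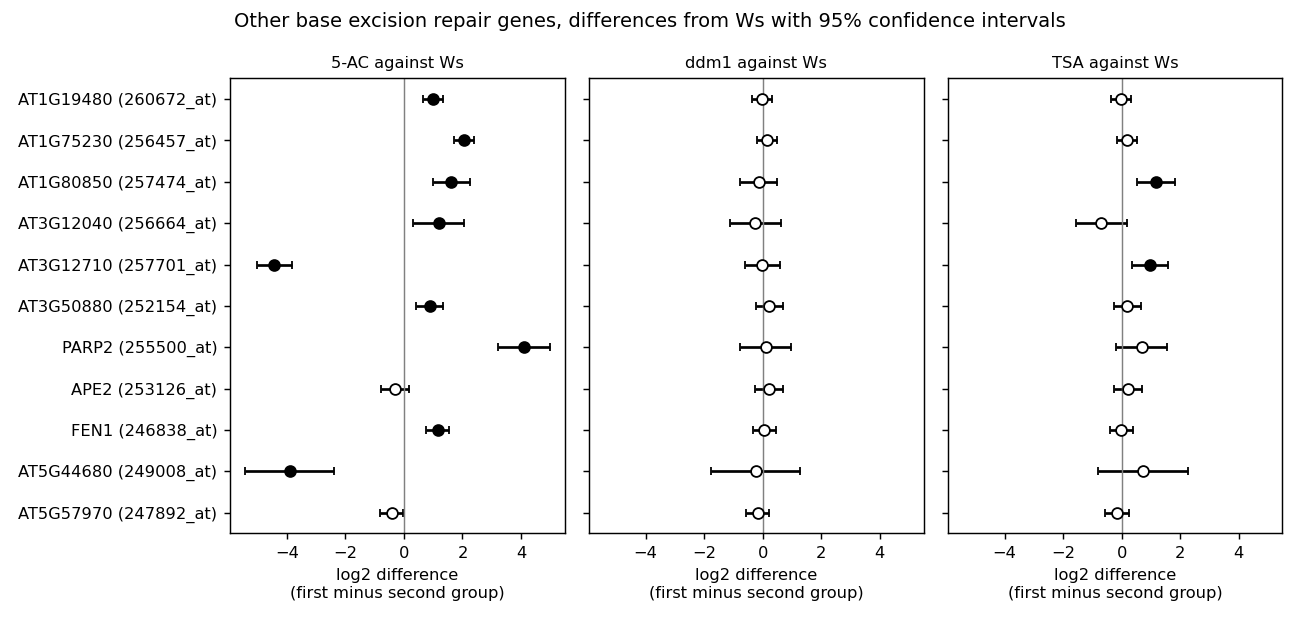
Log2 difference from Ws of the 11 other base excision repair genes tested, for 5-AC, *ddm1* and TSA, with 95% confidence intervals from limma; filled points are past an adjusted p of 0.05. For 5-AC 7 points are filled on the higher side and 2 on the lower side, with *PARP2* (4.11) and AT3G12710 (-4.43) at the ends, and for *ddm1* all 11 points are unfilled.

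Of 13 genes that assist demethylation 2 were tested, both named only by the study's tables of changed genes. Their calls after 5-AC are therefore not independent evidence. *IDM1*, a histone acetyltransferase that ROS1 needs at some of its targets, had log2 values of 5.42, 5.61 and 5.42 in Ws and 3.79, 4.22 and 3.93 after 5-AC (log2 change -1.50, adjusted p = 4.9e-06 from limma). *NAR1*, of the iron-sulphur cluster assembly on which ROS1 and DME depend, rose by 1.42 (adjusted p = 1.7e-05). In *ddm1* the changes were -0.08 for *IDM1* and -0.09 for *NAR1*, and after TSA they were 0.14 and -0.33, none of them called. Of 12 genes that set or keep DNA methylation 4 were tested, all named only by the study's tables of changed genes. All 4 (*MET1*, *DDM1*, *NRPD1* and *RDM1*) were higher after 5-AC, where 30.9% of all probe sets were higher and 26.3% lower. Because of how they were named, these 4 calls are not independent evidence either. In *ddm1* only *DDM1* was called, *NRPD1* had a log2 change of -0.68 (adjusted p = 0.29 from limma), and after TSA 0 of the 4 were called, 2 were under an unadjusted p of 0.05 and the methods' t-test called 0. Of all probe sets 1.35% were higher and 0.216% lower in *ddm1*, and 7.14% and 7.35% after TSA. *NRPD1* and *RDM1*, of RNA-directed DNA methylation, rose by 1.8 and 2.2 after 5-AC. *MET1*, the methyltransferase that maintains CG methylation, rose after 5-AC from 5.70, 6.18 and 6.15 to 7.21, 7.62 and 7.98 (log2 change 1.59, adjusted p = 4.4e-05) and had changes of 0.28 in *ddm1* (adjusted p = 0.99) and 0.12 after TSA (adjusted p = 0.74).

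*FWA* and *MPC*, imprinted genes that DME activates in the central cell, were measured as its targets. *FWA* lay below the 25th percentile on each Ws and TSA array, so the sizes of its changes depend on the background level. It reached the filter's log2 value of 3 only on arrays of 5-AC and *ddm1*, so it had to differ between groups to be tested. Its log2 values were 2.24, 2.17 and 2.24 in Ws, 7.52, 7.94 and 6.85 after 5-AC and 3.98, 4.31 and 4.31 in *ddm1*, with log2 changes of 5.22 after 5-AC (adjusted p = 2.7e-08 from limma), 1.99 in *ddm1* (adjusted p = 0.00031) and -0.02 after TSA (adjusted p = 0.97). The methods' t-test did not call *FWA* in *ddm1* (adjusted p = 0.25). Its probe set is named only by the study's tables of changed genes, so its rise is not independent evidence. *MPC* reached the filter's log2 value of 3 only on 2 arrays of 5-AC, so it had to differ to be tested. It was 2.58, 2.54 and 2.55 in Ws and 3.75, 3.86 and 2.62 after 5-AC (log2 change 0.85, adjusted p = 0.016 from limma), with 5-AC replicate 3 near the Ws level and the call lost without 5-AC replicate 1 or 2 (0.68 and 0.63). The call was also lost by the methods' t-test (adjusted p = 0.25). *MPC* had no call in *ddm1* or after TSA. A link between the level of *DME* and that of any of these genes was not tested.

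The genes whose level followed that of *ROS1* most closely over the 12 arrays, among 11016 with a named probe set for a single sequence, were *PLP3a* (r = 0.909), *CLF* (r = 0.905), *RABG3c* (r = 0.904), AT1G62770 (r = 0.894) and AT5G19900 (r = 0.878). *CLF*, a histone methyltransferase of the Polycomb group, had a mean log2 level of 4.96 in Ws and 3.84, 4.08 and 3.84 in 5-AC, *ddm1* and TSA. For *DME* (250836_at) they were AT5G09960 (r = 0.966), *BIR6* (r = 0.951), *EXL5* (r = 0.95), AT1G80040 (r = 0.949) and *LCBK2* (r = 0.945). These are Pearson correlations over arrays that share 4 group means, so they describe likeness of the group pattern and carry no test.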

How the data were processed

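RNA of whole Ws seedlings was measured on ATH1 arrays, 3 per group. The deposited log2 values were computed by the authors with gcRMA, which adjusts background by probe sequence and normalizes quantiles, with 1 value per probe set. The genome build was not given in the sources used here. Present calls of the MAS software, which the methods used, were not used here. All value columns of the table were used (0 left out).

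Of 22810 probe sets 64 controls were left out, and 17129 with a log2 value of at least 3 on at least 2 arrays were tested. limma 3.58.1 (lmFit and eBayes; R 4.3.3) fitted a linear model with 1 coefficient per group to the 12 arrays. Two-sided p-values were adjusted by the Benjamini-Hochberg procedure, with a threshold of 0.05. The fit was tested on simulated data. Python 3.11.15 with pandas 2.3.3 and numpy 2.4.6 served for the tables. Quantile normalization assumes like distributions in all groups, so that where many probe sets change, as after 5-AC, a level is relative to the rest of the array.

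The genes and lists were chosen with earlier results of these data known. Genes named are the 8 genes, the members of the lists of related genes and, for *ROS1* and *DME*, the 5 named probe sets of highest Pearson correlation. *DML2* and other genes of the lists with no named probe set were not analysed here. Loci and chromosomes follow RefSeq (TAIR10.1).

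Alternatives were other filters, centring on the median or on reference genes, a fit of only the groups compared, the t-test of the methods, a replicate block and leaving out each array. Same-numbered arrays deviated together for *ddm1* and Ws (r = 0.23 to 0.52) and 5-AC and *ddm1* (0.11 to 0.26), a pairing taken from the data and not from the labels. For TSA and 5-AC (0.13 to 0.18) a pair of unlike numbers reached 0.19, so no pairing by number is shown. For 5-AC and Ws (-0.08 to 0.19), TSA and Ws (-0.06 to 0.24) and TSA and *ddm1* (-0.002 to 0.28) they did not in every pair.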

Additional observations from a re-analysis of the deposited data

How the results depend on the processing

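Of the 9 probe sets, the numbers called with 1 array left out were 5 to 6 for 5-AC against Ws (6 with all arrays), 1 for *ddm1* against Ws (1), 2 to 3 for TSA against Ws (3), 5 for 5-AC against *ddm1* (5), 3 to 4 for TSA against 5-AC (3) and 1 to 2 for TSA against *ddm1* (2). By the methods' t-test they were 5 for 5-AC against Ws, where 14.8% of all probe sets were higher and 11.9% lower. With these shares in the same order, they were 0 for *ddm1* against Ws (0.21% and 0%) and 0 for TSA against Ws (0.0234% and 0.0234%). They were 3 for 5-AC against *ddm1* (16.3% and 13.9%), 1 for TSA against 5-AC (9.17% and 10.6%) and 0 for TSA against *ddm1* (0.724% and 1.31%). The counts of 0 are thus near the share over all probe sets. With the stricter filter, a log2 value of 5 on 3 arrays, *ddm1* against Ws gave 0, since *ROS1* was then not tested. With only both groups in the fit TSA against *ddm1* gave 1. With the replicate number as a block the counts were 6, 1, 3, 5, 3 and 2 in the order above, and no call among the 9 changed. No called value reversed its direction under any alternative. Centring on reference genes shifted the median log2 change over all probe sets from 0.05 to -0.20 for 5-AC against Ws, where 22.4% of them were then higher and 35.1% lower, and 3 of the 9 were higher and 3 lower. Since 2 of the 3 reference genes were themselves called after 5-AC, these values carry their changes. It moved the higher share of calls from 49.3% to 39.1% for TSA against Ws, from 54.4% to 44.4% for 5-AC against *ddm1* and from 44.9% to 57.9% for TSA against 5-AC. The low signal of *ROS1* and *APE1L* limits their folds.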
